A study of Homo sapiens with 2 samples.

Results

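The replication-dependent histone genes are the clustered genes for the linker histone H1 and the core histones H2A, H2B, H3 and H4. They were taken by gene symbol from the deposited table, under their current names (H1-1 to H1-6, H2AC, H2BC, H3C and H4C with a number) or the older HIST1H to HIST4H names, which gave 69 of its 50868 genes. Of these, 2 (HIST2H2BC and HIST2H2BB) are pseudogenes in GENCODE 44. By class there were 6 genes for H1, 16 for H2A, 19 for H2B, 14 for H3 and 14 for H4.

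Histone proteins package DNA into nucleosomes, and a dividing cell makes most of them during S phase, when DNA is copied. The messenger RNAs of these genes are unlike others in that they usually have no introns and no poly(A) tail. They end in a conserved stem-loop, which is bound by the stem-loop binding protein SLBP, and they are degraded when DNA synthesis stops. Some of the genes also have longer transcripts that are polyadenylated, which are known from cells that have left the cell cycle or differentiated.

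RNA-seq was performed on MOLM-13, a human acute myeloid leukemia cell line. There was 1 library from cells with the control vector (Vector) and 1 library from cells labelled as overexpressing UNC5B (OE-UNC5B), a receptor for netrin-1, and the series was made to look at genes of adhesion and proliferation. According to the methods, UNC5B was carried by a lentivirus with the CMV promoter, a FLAG tag, mCherry and a puromycin resistance gene, and infected cells were selected with puromycin. Neither a clone, a time after infection nor the content of the control virus is given in the sources used here.

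UNC5B itself, on chromosome 10 from 71212570 to 71302864 of GRCh38 on the plus strand, was at 0 reads in both libraries. The second library is therefore called the library labelled OE-UNC5B, and every direction below rests on the labels. Vector held 13715566 counted reads and the OE-UNC5B-labelled library held 15637137. A count of 0 allows up to 3 reads, which is 0.219 CPM (reads divided by the library total, on the usual scale) in Vector and 0.192 in the OE-UNC5B-labelled library. All 12 markers of myeloid leukemia cells that were examined had reads, with 23379 and 27392 reads in all, and MPO was the only one past 2-fold (3363 and 1553 reads, in the order Vector and labelled OE-UNC5B). Of 8 endothelial markers, 4 were at 0 in both libraries, CDH5 and KDR among them, and PECAM1 held nearly all the reads (1626 and 1471). Of 8 epithelial and HEK293 markers, 6 were at 0 in both and the list summed to 11 and 2 reads. The 8 lymphoid markers summed to 412 and 431 reads, 340 and 315 of them from NKG7, and their other values were CD3D with 67 and 102 reads and CD79A with 3 and 10 reads among the genes with at least 10.

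The stem-loop was searched for in the transcripts of GENCODE 44 (GRCh38), since it sets these mRNAs apart from all others. All 67 members with a coding transcript there held it within 100 bases after the stop codon, against 72 of 19184 protein-coding transcripts in all (0.375%). For each member the coding transcript with the fewest exons, and then the shortest, was searched. The wider count took only the canonical transcript of each gene and did not leave out the members. In the members the loop lay between 22 and 67 bases after the stop codon, with a median of 35. Its 16 bases took 10 forms, and the commonest was shared by 39 members. The sites of members that the comparisons below turn on are given with the stem-loop in capitals and its flanks in lower case, so that the paired ends of the stem can be seen. They lie on chromosome 6 at chr6:26055744-26055759 (minus strand) for H1-2, chr6:26124669-26124684 (plus strand) for H2AC6, chr6:27133515-27133530 (plus strand) for H2AC11, chr6:27146366-27146381 (minus strand) for H2BC12, chr6:26285131-26285146 (minus strand) for H4C8 and chr6:26205001-26205016 (plus strand) for H4C5.
H1-2: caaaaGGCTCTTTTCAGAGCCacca
H2AC6: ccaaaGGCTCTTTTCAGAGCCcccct
H2AC11: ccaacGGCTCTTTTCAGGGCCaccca
H2BC12: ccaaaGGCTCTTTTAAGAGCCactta
H4C8: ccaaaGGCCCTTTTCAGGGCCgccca
H4C5: tcaaaGGCCCTTTTCAGGGCCgccca

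H4C8 and H4C5, which differed in opposite directions between the libraries, carried the same 16 bases. H1-2 and H2AC6 also shared theirs, the commonest form.

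These genes were thinly read. Their reads summed to 656 in Vector and 1170 in the OE-UNC5B-labelled library, which is 47.8 and 74.8 CPM. There were 12 members at 0 in both libraries, 27 members with fewer than 10 reads over both, and 30 members with at least 10 reads, for which fold changes are given. The most-read member had 338 reads over both libraries, whereas the median gene with at least 10 reads had 269.5 reads in Vector alone. Values were scaled with edgeR's TMM factors and 0.5 reads were added to each count or sum before a ratio was taken. Histone genes resemble and overlap each other, so that 13 of the 30 members overlap another gene of the table, 10 of them on the same strand, and 27 of the 67 members with a transcript in GENCODE 44 share 75-base stretches with another gene. With 1 library per group no difference here has a replicate check, no test of the conditions was possible, and the 95% Clopper-Pearson intervals cover counting error only. Histone mRNA is made in S phase, and in bulk RNA more cells in S phase and more histone mRNA per cell cannot be told apart.

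The reads of the histone genes summed to more in the OE-UNC5B-labelled library, at 1.51-fold (log2 ratio 0.60, interval 0.46 to 0.74). Of the 30 members with at least 10 reads, 21 were above Vector and 9 were below it, with a median log2 fold change of 0.54, where the median of all 15384 genes tested was -0.01. Over all 69 members with no minimum of reads the median was -0.24, which is the value that equal reads in both libraries give after scaling, the 12 members at 0 included. At least 2-fold higher were 8 members and at least 2-fold lower were 2. Among all genes tested 5.15% were at least 2-fold higher and 4.79% at least 2-fold lower. Low counts scatter more widely, and among the 6233 genes with no more reads than the most-read histone gene each share was 9.67%. The interval lay above 0 for 8 members and below 0 for 1 member, against 13.3% and 13.6% of those genes (25.2% and 26.2% of all genes tested). The bound of these 6233 genes was set by H2BC12 alone. Most of the 30 members had far fewer reads, so the shares are not matched to their depth. Of the 8 members at least 2-fold higher, H4C15, H2BC11 and H4C9 had intervals that included 0.

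**Figure D1:**
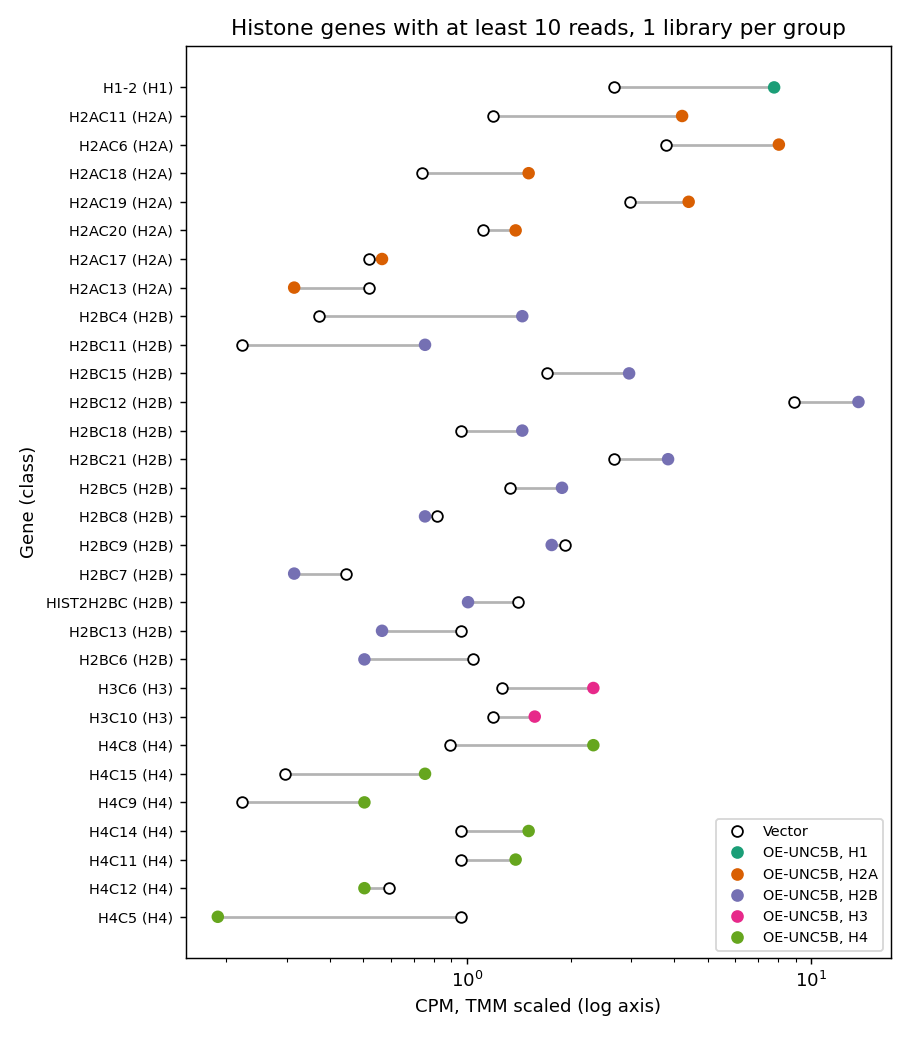
TMM-scaled CPM (log axis) of the 30 histone genes with 10 or more reads in all, ordered by class and fold change, with an open circle for Vector and a filled circle for the OE-UNC5B-labelled library (1 library each). The filled circle lies to the right of the open one in 21 genes and to its left in 9, with the longest lines to the left for H4C5 and H2BC6.

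The H1 genes encode the linker histones, which bind DNA between nucleosomes. H1-2 (chr6:26055787-26056428, minus strand) had 36 reads in Vector and 124 in the OE-UNC5B-labelled library, or 4.09 and 12.4 FPKM (a level per length of gene model and per library size). Its log2 fold change was 1.53 (interval 1.0 to 2.13). Every other H1 gene with reads had fewer in the OE-UNC5B-labelled library. H1-4 had 8 and 1 reads, H1-5 had 7 and 0, and H1-3 had 2 and 0, and together these H1 genes went from 17 reads to 1 (log2 ratio -3.78, interval -9.71 to -1.65). That sum leaves out the only H1 gene that was higher, so its direction follows from that choice. Each of its members had fewer than 10 reads. H1-4 falls under the minimum of 10 reads and is named after its values were seen. The sum of the class, 53 and 125 reads with a log2 ratio of 0.99 (interval 0.53 to 1.49), thus rested on H1-2 alone. The H1-2 locus is overlapped in the table by that of H2BC3, and the reads counted under H1-2 may include those of another transcript.

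H2A and H2B form the dimers at the outer faces of the nucleosome. For H2A, the summed reads were 164 and 347 (log2 ratio 0.84, interval 0.57 to 1.12), and 2 of 7 members with at least 10 reads were at least 2-fold higher while none was at least 2-fold lower. H2AC6 (chr6:26124145-26139116, plus strand), a locus far longer than a histone coding sequence, had 51 and 128 reads, or 0.890 and 1.96 FPKM. Its log2 fold change was 1.08 (interval 0.61 to 1.59). H2AC11 (chr6:27133042-27135291, plus strand) had 16 and 67 reads, or 0.518 and 1.90 FPKM, with a log2 fold change of 1.80 (interval 1.03 to 2.72). These were the H2A genes with models of 1000 nt or more, and their sum of 67 and 195 reads gave a log2 ratio of 1.3, against 0.41 for the 13 shorter ones with reads (97 and 152 reads).

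The other H2A genes were closer in the 2 libraries. H2AC19 had 40 and 70 reads and H2AC18, its near-identical copy, had 10 and 24. Reads of this pair cannot be assigned with certainty, and the log2 fold change of 0.99 for H2AC18 lay just inside the 2-fold bound. H2AC20 had 15 and 22 reads and H2AC17 had 7 and 9. H2AC13, with 7 and 5 reads, was the only H2A gene of this group that was lower. Among the H2A genes with fewer reads, H2AC14 had 0 and 5 reads and H2AC4 had 1 and 0.

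H2B was the class with the most reads, 309 in Vector and 496 in the OE-UNC5B-labelled library (log2 ratio 0.45, interval 0.24 to 0.66). Over the 7 H2B members whose transcripts were found to share no 75-base stretch with another gene, which leaves out H2BC12, the log2 ratio was -0.11, a selection made after the data were seen. Its 13 members with at least 10 reads were divided, with 7 above Vector and 6 below, 2 of them at least 2-fold higher and 1 at least 2-fold lower. H2BC12 (chr6:27146418-27146798, minus strand) was the most-read histone gene and the highest per length, with 120 and 218 reads, or 23.0 and 36.6 FPKM. Its log2 fold change was 0.62 (interval 0.30 to 0.96), so it was above Vector beyond counting error but under 2-fold. Part of its sequence is shared with other histone genes, so that some of these reads may be theirs.

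H2BC4 (chr6:26114873-26123926, minus strand) had 5 and 23 reads, or 0.296 and 1.20 FPKM, with a log2 fold change of 1.86 (interval 0.54 to 3.72), and its locus also overlaps that of H2BC3. H2BC11 (chr6:27125897-27132750, minus strand) had 3 and 12 reads, or 0.126 and 0.441 FPKM, and its log2 fold change of 1.60 had an interval that included 0 (-0.13 to 4.23). H2BC6 (chr6:26172059-26184655, plus strand) was the H2B gene past 2-fold in the other direction, with 14 and 8 reads, or 0.331 and 0.166 FPKM. Its log2 fold change of -1.01 was within counting error (interval -2.50 to 0.31). H2BC15 had 23 and 47 reads and a log2 fold change of 0.78, with an interval above 0. The values of H2BC21 were 36 and 61 reads, those of H2BC5 18 and 30, and those of H2BC18 13 and 23. Nearly level were H2BC9 with 26 and 28 reads and H2BC8 with 11 and 12. The H2B genes with fewer reads in the OE-UNC5B-labelled library were, besides H2BC6, H2BC13 with 13 and 9 reads and H2BC7 with 6 and 5. The pseudogene HIST2H2BC had 19 and 16 reads. Its symbol is an older name of H2BC20P in RefSeq, and the table has a separate entry under that newer name, next to it on chromosome 1, with 123 and 217 reads. H2BC3, which overlaps H1-2 and H2BC4, had 0 and 1 reads.

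H3 and H4 form the tetramer at the centre of the nucleosome. The H3 genes summed to 59 and 79 reads, a log2 ratio of 0.18 whose interval included 0 (-0.32 to 0.70), and none of the class was past 2-fold among its 2 members with at least 10 reads. H3C6 had 17 and 37 reads (log2 fold change 0.86, interval above 0) and H3C10 had 16 and 25. In sums of FPKM the log2 ratio of the class was -0.62, and without its most-read member it was -0.24. Split by the length of the gene model, the class gave ratios of opposite sign. The 7 H3 genes with models under 1000 nt, each with fewer than 10 reads, summed to 24 reads in Vector and 7 in the OE-UNC5B-labelled library (log2 ratio -1.94, interval -3.47 to -0.76). The 4 with models of 1000 nt or more summed to 35 and 72 (log2 ratio 0.79, interval 0.20 to 1.43). Among the thinly read H3 genes, HIST1H3B had 3 and 0 reads and H3C14 had 0 and 4.

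The H4 genes summed to 71 and 123 reads (log2 ratio 0.55, interval 0.12 to 1.0), with 3 of 7 members at least 2-fold higher and 1 at least 2-fold lower. H4C8 (chr6:26277609-26285638, minus strand) had 12 and 37 reads, or 0.243 and 0.658 FPKM, with a log2 fold change of 1.35 (interval 0.42 to 2.46). H4C5 (chr6:26204552-26206038, plus strand) had 13 and 3 reads, or 0.637 and 0.129 FPKM. Its log2 fold change of -2.18 (interval -4.80 to -0.49) was the largest in size of the 30 and the only one with an interval below 0. H4C15 (chr1:149854045-149861210, minus strand) had 4 and 12 reads, or 0.0849 and 0.223 FPKM, and a log2 fold change of 1.24 (interval -0.37 to 3.44), and every 75-base stretch of its transcript is also found in H4C14, which had 13 and 24 reads. H4C9 (chr6:27138588-27139881, plus strand) had 3 and 8 reads, or 0.169 and 0.395 FPKM, and a log2 fold change of 1.04 (interval -0.88 to 3.73). H4C11 had 13 and 22 reads, and H4C12, with which it shares most of its sequence, had 8 and 8. With reads in the OE-UNC5B-labelled library only were H4C1 (3 reads) and H4C13 (1 read).

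The 27 members with 1 to 9 reads over both libraries had 68 reads in Vector and 53 in the OE-UNC5B-labelled library. A member with many reads in either library leaves this set, so the direction of the sum depends on the bound and is given as a description only. Most of the difference lay in H1, with 17 and 1 reads, while H3 had 26 and 17, H2A 18 and 22, H2B 2 and 4, and H4 5 and 9. Of the 27, 13 had more reads in Vector, 9 had more in the OE-UNC5B-labelled library and 5 had equal numbers. Nearly all, 25 of the 27, had models under 1000 nt, and their sum was 66 and 43 reads.

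**Figure D2:**
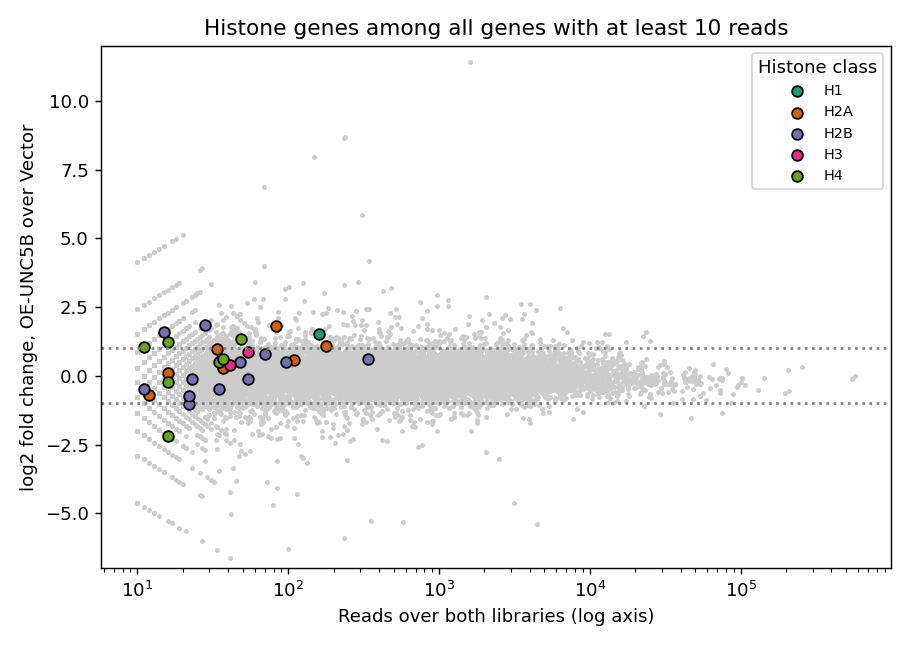
Log2 fold change (OE-UNC5B-labelled library over Vector) against reads over both libraries (log axis) for the 15384 genes with at least 10 reads, in grey, with the 30 histone genes coloured by class and dotted lines at 2-fold. The histone genes lie at the left, none above 338 reads, where the grey points scatter most, and 8 are above the upper line and 2 below the lower line.

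Model length can matter for these genes because a model that stops at the coding sequence and one that runs on past the stem-loop can catch different transcripts. Over all classes, the 36 members with models under 1000 nt summed to 354 and 570 reads (log2 ratio 0.45, interval 0.26 to 0.65), and the 21 with models of 1000 nt or more summed to 302 and 600 (log2 ratio 0.75, interval 0.55 to 0.96). Of the members past 2-fold, 7 of the 8 that were higher and both that were lower had models of 1000 nt or more, where 19 of the 30 members with at least 10 reads belong. H1-2 was the exception among those that were higher. The classes differed in this split, which was wide in H2A and H3. In H2B the log2 ratio was 0.443 for shorter models (154 and 247 reads) and 0.446 for longer ones (155 and 249). In H4 it was 0.34 (26 and 39 reads) and 0.66 (45 and 84), with intervals that overlapped. No H1 gene with reads had a longer model. Models that end before the stem-loop were found for 35 members, which summed to 242 and 417 reads (log2 ratio 0.55, interval 0.32 to 0.78). Of these reads, all but 86 and 75 belonged to H1-2 and H2BC12, and without that pair, left out after the data were seen, the log2 ratio was -0.43 (interval -0.90 to 0.03). Models that run past the stem-loop were found for 30 members, with 387 and 736 reads (log2 ratio 0.69, interval 0.51 to 0.87).

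By position, the members fell into 5 blocks separated by at least 500000 bases. The block on chromosome 1 from 149782689 to 149887916 holds 12 members, with 155 and 264 reads (log2 ratio 0.53, interval 0.24 to 0.83), and 1 of its 8 members with at least 10 reads was past 2-fold. Only 1 member of this block, H2AC21, was found to share no 75-base stretch with another gene, and it had 1 read in each library, so no ratio of the block without shared sequence can be read. The first block on chromosome 6, from 25726132 to 26285638, is the largest with 34 members. It had 244 and 458 reads (log2 ratio 0.67, interval 0.44 to 0.90), and of 11 members with at least 10 reads 4 were at least 2-fold higher and 2 at least 2-fold lower. The middle block on chromosome 6, from 27125897 to 27147515, has 5 members with 147 and 307 reads (log2 ratio 0.82, interval 0.54 to 1.12), and 3 of the 4 with at least 10 reads were at least 2-fold higher, H2BC11 and H4C9 with intervals that included 0. H2BC12 held 120 and 218 of these reads, and without it the log2 ratio was 1.47. The last block, from 27807444 to 27893843, had the lowest ratio of the blocks with reads, with 110 and 141 reads over 16 members and a log2 ratio of 0.12 whose interval included 0 (-0.25 to 0.49). None of its 7 members with at least 10 reads was past 2-fold, and without the members that share sequence the log2 ratio was -0.32. The remaining block, on chromosome 1 from 143875171 to 143905966, has 2 members at 0 in both libraries.

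**Figure D3:**
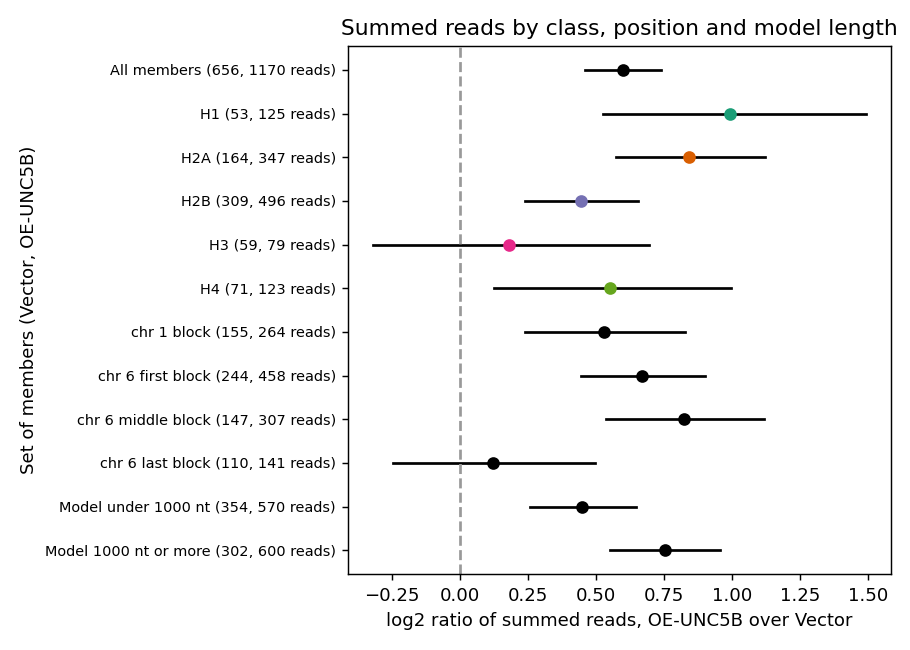
Log2 ratio of summed reads (OE-UNC5B-labelled library over Vector, TMM scaled) for all members, each class, the blocks with reads and the length groups, with the reads of each library on the vertical axis. Points are ratios and bars are 95% Clopper-Pearson intervals of the reads, which cover counting error only; the bars of H3 and of the last block on chromosome 6 cross 0.

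H2A and H2B genes often stand head to head, with a shared promoter between them. By the starts of the deposited models, which leave out pairs whose models overlap such as H2AC15 and H2BC15, 11 such pairs were found, 10 of them with reads, and the starts of those lay 219 to 331 bases apart. Of the 9 pairs with at least 10 reads in sum, 2 were at least 2-fold higher and none was at least 2-fold lower. H2AC6 and H2BC4 together had 56 and 151 reads (log2 ratio 1.19), and both members were at least 2-fold higher. The same held for H2AC11 and H2BC11, with 19 and 79 reads (log2 ratio 1.79). Other pairs were uneven in level, and H2AC12 had 5 and 2 reads beside the 120 and 218 of H2BC12. In the pair of H2AC13 and H2BC13 both members were lower, with 20 and 14 reads in sum.

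The promoters are given because histone genes of a class are known to share short elements there. RefSeq (GRCh38.p14) windows from 250 bases before to 50 after the start were at hand for 59 members, 63 windows in all, and were searched on both strands for the TATA box (TATAAA), the CCAAT box (CCAAT) and the octamer (ATTTGCAT). The TATA box was found in 68.3% of the histone windows against 11.5% of all 35116 windows, the CCAAT box in 85.7% against 34.6%, and the octamer in 42.9% against 1.77%. The octamer was in 73.3% of H2A and 78.9% of H2B windows, in 1 of 11 H3 windows and in none of the 6 H1 or 12 H4 windows. That H3 window, the second listed for H3C4, is the same interval as the window of H2AC7. Windows of head-to-head H2A and H2B genes can overlap too, so the same match can count for both genes. The octamers of H2AC6 and H2AC11, for example, are the same sites as those of H2BC4 and H2BC11. The CCAAT box was in every H1, H2A, H2B and H3 window and in 25.0% of the H4 windows. The windows of the members at least 2-fold higher with the most reads in H1, H2A and H4 are shown, with matches in capitals, at chr6:26056421-26056720 (minus strand) for H1-2, chr6:26123922-26124221 (plus strand) for H2AC6, chr6:27132793-27133092 (plus strand) for H2AC11 and chr6:26285485-26285784 (minus strand) for H4C8. Overlapping matches run together, as they do for the TATA box on both strands of H2AC11.
H1-2: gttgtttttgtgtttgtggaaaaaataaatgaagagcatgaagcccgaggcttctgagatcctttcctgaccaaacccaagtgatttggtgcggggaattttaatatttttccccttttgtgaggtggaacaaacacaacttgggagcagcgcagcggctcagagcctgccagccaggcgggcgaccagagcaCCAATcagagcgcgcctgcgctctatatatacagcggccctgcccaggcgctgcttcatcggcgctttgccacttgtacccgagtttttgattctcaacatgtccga
H2AC6: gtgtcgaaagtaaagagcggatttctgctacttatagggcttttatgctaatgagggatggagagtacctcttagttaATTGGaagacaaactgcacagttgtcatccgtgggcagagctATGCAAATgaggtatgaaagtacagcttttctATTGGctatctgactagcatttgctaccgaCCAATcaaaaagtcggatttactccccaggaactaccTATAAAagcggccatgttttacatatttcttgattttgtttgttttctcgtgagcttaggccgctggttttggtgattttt
H2AC11: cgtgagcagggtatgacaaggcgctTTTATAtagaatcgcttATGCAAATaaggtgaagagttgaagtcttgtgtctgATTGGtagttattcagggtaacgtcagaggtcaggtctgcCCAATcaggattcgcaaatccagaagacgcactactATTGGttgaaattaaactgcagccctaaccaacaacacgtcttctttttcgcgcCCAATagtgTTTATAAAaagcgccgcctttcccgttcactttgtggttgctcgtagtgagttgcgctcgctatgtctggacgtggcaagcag
H4C8: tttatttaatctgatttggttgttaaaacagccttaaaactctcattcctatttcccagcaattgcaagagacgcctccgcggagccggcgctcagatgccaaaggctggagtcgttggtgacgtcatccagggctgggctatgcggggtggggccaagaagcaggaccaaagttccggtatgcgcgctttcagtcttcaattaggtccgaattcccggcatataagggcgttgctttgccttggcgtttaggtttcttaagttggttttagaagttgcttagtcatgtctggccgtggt

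H2AC6 and H2AC11 held all 3 elements, H1-2 only the CCAAT box, and H4C8 none of them. These genes were all at least 2-fold higher, and a match of letters is a description of the window only.

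The variant histones are made throughout the cell cycle, mostly from polyadenylated mRNA. Of 18 such genes 11 had at least 10 reads. Of these, 1 was at least 2-fold higher, where the share of all genes tested was 5.15%, and none was at least 2-fold lower. Above Vector were 4 and below it 7, and the median log2 fold change was -0.12. The most-read were MACROH2A1 with 11405 and 19419 reads, H2AZ1 with 5067 and 5585 and H3-3B with 3907 and 3599. Summed FPKM was 224 and 217 for the variants, against 67.0 and 95.8 for the replication-dependent genes.

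Processing of the stem-loop mRNA needs SLBP, the U7 particle and a cleavage complex, and NPAT drives transcription of the clusters. Of 31 genes for these factors, 30 had at least 10 reads and none was past 2-fold, with a median log2 fold change of -0.02. SLBP had 1487 and 1413 reads, NPAT 545 and 583, and the most-read were SNRPB with 6839 and 6133, CPSF1 with 4536 and 5369 and SYMPK with 3064 and 3014. Among 16 genes of histone mRNA decay and export, 1 was at least 2-fold higher, where the share of all genes tested was 5.15%. None was at least 2-fold lower, 10 were above Vector and 6 below it, and the median was 0.15. The gene at least 2-fold higher was TUT1, a terminal uridylyltransferase, with 98 and 315 reads (log2 fold change 1.44). ERI1, the exonuclease that trims the stem-loop, had 504 and 1144 reads and a log2 fold change of 0.95, and it is named after its values were seen. The most-read of this list were UPF1 with 2978 and 3311 reads, PNRC2 with 2417 and 3682 and LSM4 with 2576 and 2349. Of 28 histone chaperones, 1 was at least 2-fold higher, against the same 5.15% of all genes tested, and none was at least 2-fold lower. Above Vector were 7 and below it 21, and the median was -0.14. The chaperone at least 2-fold higher was UBN1, a subunit of the HIRA complex, with 552 and 1439 reads (log2 fold change 1.15). The most-read were NPM1 with 24858 and 25528 reads, NCL with 22728 and 23339 and SET with 7005 and 8086.

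**Figure D4:**
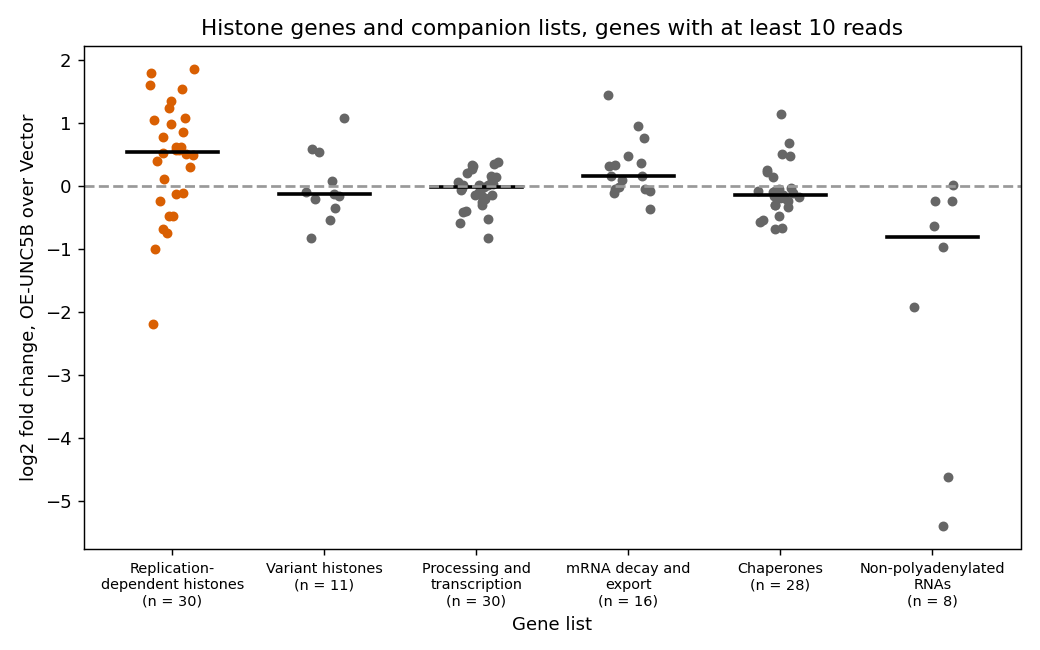
Log2 fold change (OE-UNC5B-labelled library over Vector) of each gene with at least 10 reads in the replication-dependent histone genes (orange) and 5 related lists (grey), with a bar at the median and points spread sideways for sight only. The medians are 0.54 for the histone genes, -0.12, -0.02, 0.15 and -0.14 for variants, processing, decay and chaperones, and -0.80 for RNAs without a poly(A) tail, where the lowest points are RN7SL1 and RN7SL2.

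According to the labels, mRNA was separated from total RNA before the libraries were made, by a step not described there, so RNAs without a poly(A) tail bear on how each library was made. Of 45 such RNAs, 15 names were in the table, and 8 genes had at least 10 reads. None was at least 2-fold higher and 3 were at least 2-fold lower, where the share of all genes tested was 4.79%, with a median log2 fold change of -0.80. RN7SL1 had 3005 and 143 reads (log2 fold change -4.62) and RN7SL2 had 4368 and 121 (log2 fold change -5.40). These genes for the 7SL RNA of the signal recognition particle are near-identical, so reads may be split between them. SNORA73B, the most-read after these, had 45 and 34 reads, and SNORD3A, named after its values were seen, had 14 and 4. Without the 7SL genes the list summed to 119 and 86 reads (log2 ratio -0.70, interval -1.12 to -0.29). The 7SL genes were thus lower in the library where the histone reads summed to more, and their part in the histone values was not tested.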

How the data were processed

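MOLM-13 RNA (1 Vector library, 1 labelled OE-UNC5B) was prepared with the VAHTS Universal V6 kit and sequenced on an Illumina HiSeq platform. The submitters' processing notes name bcl2fastq 2.19, HISAT2 2.0.4, StringTie 1.3.0 and GRCh38. The annotation release, the counting tool and the use of strand are not given in the sources used here, so reads of overlapping genes may not be told apart. Read counts for each gene were deposited as such by the authors, with no scaling. FPKM values, also deposited, were used for levels between genes and, divided into the counts, for the length of each gene model.

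Library scaling used edgeR's TMM factors (version 4.0.16, in R 4.3.3). Where a gene had 10 or more reads in all, it got a log2 fold change with 0.5 reads added, and a change of at least 2-fold was called. Exact binomial (Clopper-Pearson) intervals at 95% were taken from the reads (scipy 1.17.1), and a count of 0 was taken as up to 3 reads. Intervals and floors cover counting error only, since reads are not independent molecules. Sums use every member. The procedure was tested on simulated data. With 1 library per group no test of the conditions could be fitted.

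Members were matched to GENCODE 44 by identifier (62), symbol (2) or RefSeq synonym (5). Of all 50868 genes, 49659 identifiers were found there, and 85.0% of those had the same start or end. Full values are given for members past 2-fold and the 3 most-read, and reads for all others with at least 10 reads or with reads in 1 library only. Of related lists, the 3 most-read genes, SLBP, NPAT and genes past 2-fold with at least 50 reads are named. A gene that meets this rule is not reported here. The members and lists were chosen with earlier results of these data known. Each result was recomputed with size factors from DESeq2 1.42.0, with plain library totals, from FPKM plus 0.1 or 1, with 2 reads added, with a minimum of 50 reads or none, with folds of 1.5 and 4, with a length bound of 700 nt, and with some members left out, where the choice applied.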

Additional observations from a re-analysis of the deposited data

How the results depend on the processing

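No paired analysis was possible because each group has 1 library and no result comes from a test, and no library could be left out. Of 208 alternative values over 30 results, 176 stayed within bounds (1.5 times for a count, the counting interval for a ratio, the median bounds of the members' intervals for a median), 28 moved and 4 reversed. Within those bounds 9 ratios or medians still changed sign, which were the histone median with no filter, H3, at -0.24 without its most-read member, the last block on chromosome 6 (3 values, the lowest -0.13) and the processing list (4 medians). The 8 members at least 2-fold higher became 1 with FPKM and 1 added, 14 of 69 with no filter, 3 of 9 with at least 50 reads, 13 at 1.5-fold and 0 at 4-fold. The 2 lower became 1 with library totals, DESeq2 size factors, FPKM with 0.1 added, 2 reads added or a bound of 4-fold, 0 with FPKM and 1 added or with at least 50 reads, 11 with no filter and 4 at 1.5-fold. With FPKM and 1 added, 0 variant histones, 0 decay genes and 0 chaperones were higher, and with no filter 2 variant histones were higher and 7 RNAs without a poly(A) tail were lower. The median over all 69 histone members with no filter was -0.24, against 0.54. The median of the RNAs without a poly(A) tail was -4.62 over the 3 with at least 50 reads.

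The log2 ratio of H1 was -3.78 without its most-read member or without members that overlap another gene. In sums of FPKM, H2A was 0.54 and H3 -0.62. Over members found to share no 75-base stretch with another gene, which was chosen after seeing the data, H2A was 1.14, H2B -0.11, the chromosome 1 block with reads -0.24 (1 member with 1 read in each library), the middle block on chromosome 6 1.42 and the last block -0.32. Without overlapping members the chromosome 1 block was 0.19 and models under 1000 nt were 0.24. Without H2BC12 the middle block was 1.47. The causes of these shifts were not tested beyond the change of members. Depth limits what can be said of single members, since 39 of 69 had fewer than 10 reads.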

Other observations

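Some entries for clustered histone loci lie outside the symbols used to choose the members. The entry H2BC20P, a pseudogene on chromosome 1 whose older name HIST2H2BC is also an entry among the members, had 123 reads in Vector and 217 in the OE-UNC5B-labelled library (log2 fold change 0.58, interval 0.26 to 0.91), and it shares sequence with H2BC18 and H2BC21. H2BC19P, another pseudogene there, had 20 and 46 reads (log2 fold change 0.95). H2AW, an H2A gene on chromosome 1 away from the main block, had 63 and 121 reads (log2 fold change 0.70, interval 0.25 to 1.17), and its neighbour H2BU1 had 1 and 4. H4-16, the H4 gene that stands alone on chromosome 12, had 13 and 10 reads (log2 fold change -0.60, interval -1.96 to 0.69). None of these was past 2-fold among those with at least 10 reads, and all were named after their values were seen.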
